A study of Mus musculus with 34 samples.

Results

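A set of 7 genes of ammonia disposal were followed through 34 RNA-seq libraries of mouse tissue. They were Cps1, Otc, Ass1 and Asl for enzymes of the urea cycle, Nags for the enzyme that makes the cycle's activator, Slc25a15 for the mitochondrial ornithine carrier and Glul for glutamine synthetase. They were taken by name, and all 7 were present among the 51368 gene identifiers of the deposited table.

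The urea cycle turns ammonia, which is toxic, into urea for excretion, and the complete cycle runs in hepatocytes. It begins in mitochondria, where carbamoyl phosphate synthetase (Cps1) needs N-acetylglutamate, the product of Nags, and ornithine transcarbamylase (Otc) makes citrulline. Later steps, among them those of Ass1 and Asl, run in the cytosol, and Slc25a15 brings ornithine back. Ammonia that escapes the cycle in periportal and midlobular hepatocytes is captured as glutamine by Glul, which in liver is found in the hepatocytes around the central vein.

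The libraries were made from the RNA of 1 wild-type C57BL/6J mouse aged 12 weeks, so they are technical preparations and every p-value below measures the spread between preparations, not between animals. Liver RNA was prepared by polyA selection (9 libraries), which captures RNA by its tail, by pull-down of ribosomal RNA (rRNA) with probes (9 libraries), and by enzymatic digestion of rRNA (9 libraries). Within each method, 1 library was made at each combination of 3 PCR ramp rates and 3 fragment lengths, from 200 ng of RNA. Unselected liver libraries, in which rRNA was neither removed nor avoided, came from 20 ng of RNA, always with medium fragments and the slow ramp, and there were 3 in each of 2 batches. Heart RNA gave 1 unselected library, made with batch 1. PolyA libraries were in batch 1 and pull-down and digestion libraries in batch 2. Each method also had its own library kit (unselected libraries used that of pull-down without its rRNA step), which cannot be told apart from the method, and input amount cannot be told apart from selection. The question the design poses for these genes is how much of a measured level belongs to the preparation.

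Total estimated counts were 19873390 to 21695696 in unselected liver libraries, of which 20.3 to 21.9% fell on nuclear protein-coding genes, and 19984238 to 41396063 in 26 of the 27 selected libraries. The remaining one, a pull-down library (slow ramp, long fragments), had 1126383 and stood apart from the other 8 pull-down libraries for 4 of the 7 genes. Pull-down results that it moves are given with and without it. The fit of methods shares its estimate of spread over all liver libraries, so this library also enters the errors of polyA and digestion results. Their comparisons with unselected libraries and with each other were not refitted without it. The 8 hepatocyte markers Alb, Apoa1, Ttr, Tat, Serpina1a, Cyp3a11, Fgb and Trf were detected in every liver group, with a summed level of at least 52234 normalised CPM, the usual count scale corrected for library size by edgeR's TMM factors, and the summed level of 8 cardiomyocyte markers was at most 1.05. The labels give the animal as female in one place and as male in another. Xist had 0 to 10 counts and the Y-linked gene Ddx3y 48 to 2661 counts in the 34 libraries. The Y-linked genes Eif2s3y (19 to 1774 counts), Kdm5d (14 to 948) and Uty (9 to 1161) were also detected in all 34. These counts go with the male label.

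The genes differ widely in transcript length and base composition. Taking the longest coding transcript of each gene in the GENCODE M21 annotation of GRCm38, Cps1 (chromosome 1, 67123026 to 67231259, plus strand) had 5555 bases and a GC content of 46.6%. Otc (chromosome X, 10252305 to 10321024, plus strand) had 2997 bases and the lowest GC content of the 7, 41.1%. Nags (chromosome 11, 102145513 to 102149477, plus strand) had 2028 bases and the highest, 60.1%. The medians over 13365 tested coding genes were 3123 bases and 50.04%.

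Ass1 (chromosome 2, 31470207 to 31520672, plus strand), a cytosolic enzyme, had the shortest message, 1696 bases with 54.7% GC. Asl (chromosome 5, 130011258 to 130029247, minus strand) had 2413 bases with 55.5%. Slc25a15 (chromosome 8, 22375551 to 22398597, minus strand) had 3430 bases with 47.7%, and Glul (chromosome 1, 153899944 to 153909723, plus strand) 2792 bases with 49.2%. The genes Ass1, Asl and Nags thus lay above 54% GC and the other 4 below 50%.

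Reads can be shared with other genes in a few places. Of the 50-base words in the Ass1 transcripts, 38.6% also occur in the processed pseudogene Gm5424, which had at most 472 counts and at most 0.291% of the Ass1 count in the same library. Glul shares 9.46% of its words with the pseudogene Glns-ps1, which had at most 15 counts. Nags overlaps the antisense gene Gm11586 (0 to 49 counts) and Glul the oppositely oriented Teddm2 (0 to 20 counts). Whether counting used the strand is not given in the sources used here, so the small part of these reads cannot be assigned with certainty.

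Promoter windows of 300 bases, from 250 before to 50 after an annotated start, were found for Otc, Ass1, Nags, Slc25a15 (2 starts) and Glul in the RefSeq table for GRCm38.p6, that is for 5 of the 7 genes. Cps1 and Asl had none in that table. The windows of Otc and Glul are shown because these 2 genes lie near opposite ends of the heart and liver comparison below. Motif matches are in capitals.
Otc, chrX:10252055-10252354, plus strand: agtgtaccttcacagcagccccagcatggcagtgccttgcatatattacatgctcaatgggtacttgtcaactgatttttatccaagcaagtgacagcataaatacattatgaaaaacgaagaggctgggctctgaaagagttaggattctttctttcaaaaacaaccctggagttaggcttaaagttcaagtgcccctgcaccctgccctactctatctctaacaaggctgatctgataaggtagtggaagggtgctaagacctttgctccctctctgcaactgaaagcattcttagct
Glul, chr1:153899679-153899978, plus strand: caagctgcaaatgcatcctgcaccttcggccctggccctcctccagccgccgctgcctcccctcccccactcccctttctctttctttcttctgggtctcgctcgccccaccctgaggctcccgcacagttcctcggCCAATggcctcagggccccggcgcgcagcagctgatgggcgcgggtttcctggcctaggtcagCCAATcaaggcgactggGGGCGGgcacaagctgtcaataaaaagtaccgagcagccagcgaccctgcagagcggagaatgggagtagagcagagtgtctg
Both strands were searched for the letters TATAAA (known as a TATA box), for CCAAT, for GGGCGG (known as a GC box), for a palindrome bound by C/EBP factors (TTGCGCAA) and for the cAMP response element (TGACGTCA). The Glul window held CCAAT 2 times and GGGCGG 1 time, with a GC content of 64.3%. The Otc window had a GC content of 44.3% and held none of the 5 motifs. Of all 32851 promoter windows in the table, 37.4% held CCAAT and 35.7% held GGGCGG at least 1 time. The share was 13.6% for TATAAA, 1.79% for TGACGTCA and 0.183% for TTGCGCAA. Among the other windows, GGGCGG occurred 1 time for Ass1, 2 times for Nags and 3 and 5 times in the 2 windows of Slc25a15, where 2 of the matches overlap each other. A match is a description of the letters in the window and not a measured site.

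Levels per length ordered the 7 genes from Ass1 to Nags. In the unselected liver libraries of batch 1, Ass1 stood at 987 ± 7.70 normalised CPM per 1000 bases of its merged exons (SD, n = 3). Cps1 followed at 703 ± 5.12. Glul was at 97.2 ± 3.64, Otc at 61.6 ± 2.74, Asl at 46.7 ± 2.42 and Slc25a15 at 40.2 ± 1.05 on the same scale. Nags, an enzyme that supplies a cofactor, was lowest at 11.7 ± 0.496. In batch 2 the order was the same, but Asl (44.5 ± 2.99) and Slc25a15 (40.0 ± 2.21) differed by less than the sum of their SDs. The order of Otc and Asl rests on the length used. Per 1000 bases of the longest coding transcript, Asl was at 93.4 ± 4.85 and Otc at 87.2 ± 3.87 in batch 1, and Asl at 89.1 ± 5.99 and Otc at 91.9 ± 2.88 in batch 2.

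The depth behind these values was very unequal. Cps1 had 17556 to 19238 counts in each unselected liver library and Nags 139 to 166. Within digestion libraries the coefficient of variation was between 0.705% (Cps1) and 5.10% (Ass1), and within polyA libraries between 3.96% (Cps1) and 16.6% (Nags). This spread includes fragment length and ramp rate, which differ between the libraries of a method.

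**Figure D1:**
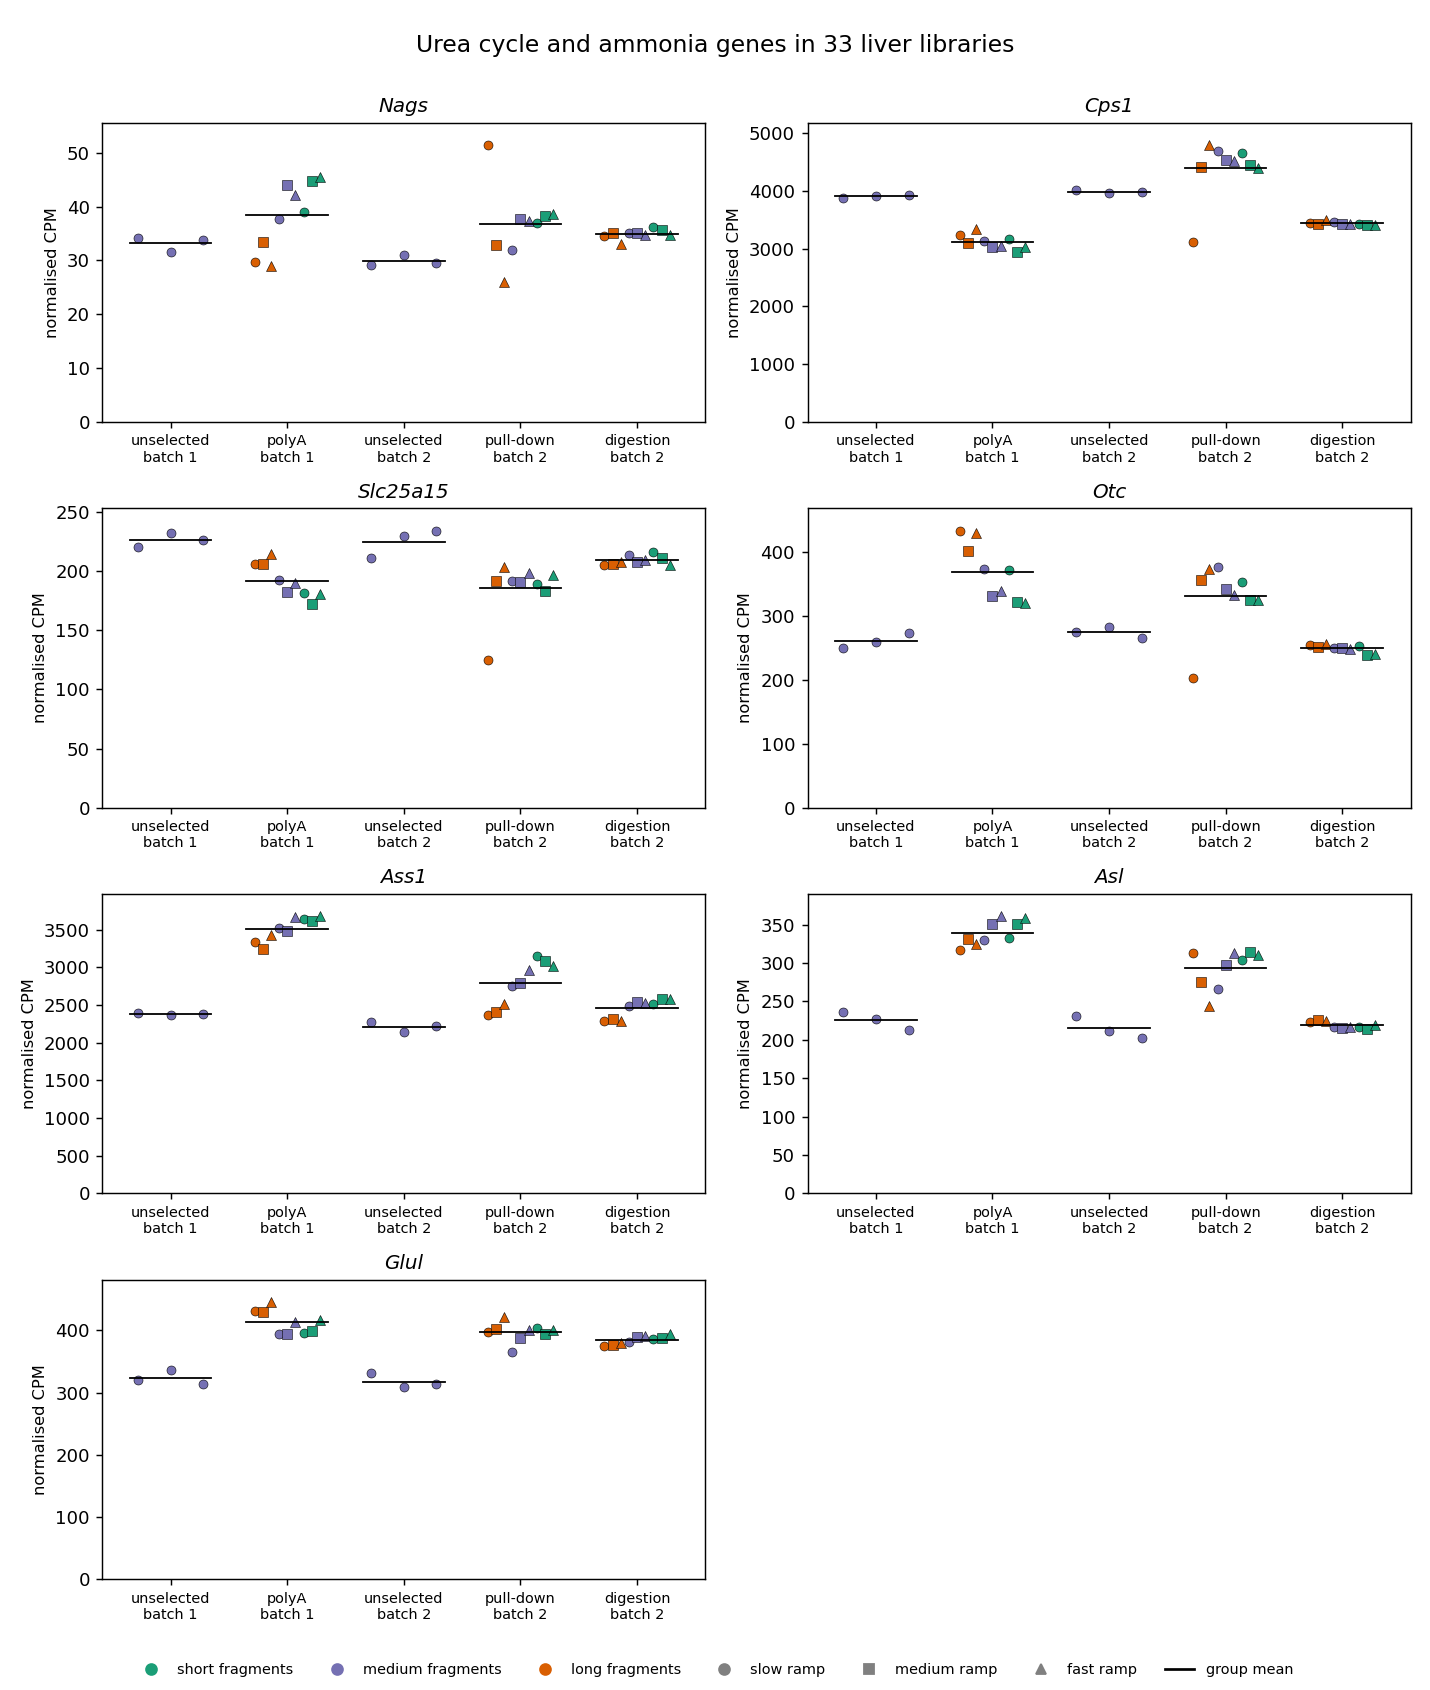
Normalised CPM (y axis, from 0) of the 7 genes in the 33 liver libraries, by group (x axis); colour gives fragment length, marker shape PCR ramp rate, and the line the group mean. Ass1 in the 9 polyA libraries lay between 3245 and 3679, above all unselected libraries, and the slow-ramp, long-fragment pull-down library stood apart for Cps1, Otc, Nags and Slc25a15.

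PolyA selection gave higher levels of the cytosolic enzymes Ass1 and Asl, of Otc and of Glul than the unselected libraries of batch 1, and lower levels of Cps1 and the ornithine carrier. Of the 7 genes, 6 passed an adjusted p of 0.05 in edgeR's quasi-likelihood test, 4 of them higher and 2 lower. Of all 15422 genes tested, 50.4% passed, so a count of this kind is common here. The members' median difference was 0.30 on the log2 scale, against 0.04 over all genes.

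Ass1, which joins citrulline to aspartate, lay between 2363 and 2399 normalised CPM in the unselected libraries and between 3245 and 3679 (median 3531) after polyA selection. Asl, which splits the product and releases fumarate, lay at 213 to 236 and at 318 to 361 (median 333). All 9 polyA libraries were above all 3 unselected ones for both genes. The log2 fold changes were 0.58 ± 0.05 for Ass1 and 0.58 ± 0.07 for Asl (edgeR adjusted p = 9.40e-11 and 2.76e-08).

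The mitochondrial members went separate ways. Otc rose from 250, 260 and 273 normalised CPM to a range of 321 to 434 (median 372), with a log2 fold change of 0.51 ± 0.12 (edgeR adjusted p = 0.000467). Cps1 fell: its unselected libraries had 3879, 3906 and 3936, and the 9 polyA libraries had 2938 to 3348 (median 3101). Its log2 fold change was -0.33 ± 0.08 (edgeR adjusted p = 0.00131), with every polyA library below every unselected one. Cps1 and Otc act one after the other in the same compartment, and on the TMM scale their levels moved in opposite directions in the same libraries.

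Slc25a15 fell as well, from 220 to 232 normalised CPM down to 172 to 215 (median 190), with no overlap. Its log2 fold change was -0.25 ± 0.08 (edgeR adjusted p = 0.0121). The call was lost without the low-count filter (edgeR adjusted p = 0.0743) and without the second unselected library (0.0547). Nags did not pass the test: the unselected libraries had 31.6, 33.8 and 34.2, and the polyA libraries 29.0 to 45.6 (median 39.04), 6 above and 2 below all unselected ones. Its difference was 0.21 ± 0.12 (edgeR adjusted p = 0.158). Glul rose from 313 to 337 up to 394 to 445 (median 413), a log2 fold change of 0.30 ± 0.04 (edgeR adjusted p = 8.03e-07). With coding totals that leave out Lars2, a gene that took 38.4 to 40.2% of these counts in unselected libraries, Glul differed by 0.05 ± 0.04 and the call was lost (edgeR adjusted p = 0.332).

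Counts relative to Cps1 within the same library need no scaling between libraries, and they show the same shift. For every 100 Cps1 counts, unselected libraries of batch 1 held 61.0 ± 0.760 counts of Ass1 (SD, n = 3), and polyA libraries held 113 ± 7.90 (SD, n = 9), more than of Cps1 itself. Asl went from 5.77 ± 0.341 to 10.9 ± 0.879 per 100 Cps1 counts. Otc went from 6.69 ± 0.248 to 11.8 ± 1.03. These are ratios of counts, and they describe unequal change without saying which gene moved.

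**Figure D2:**
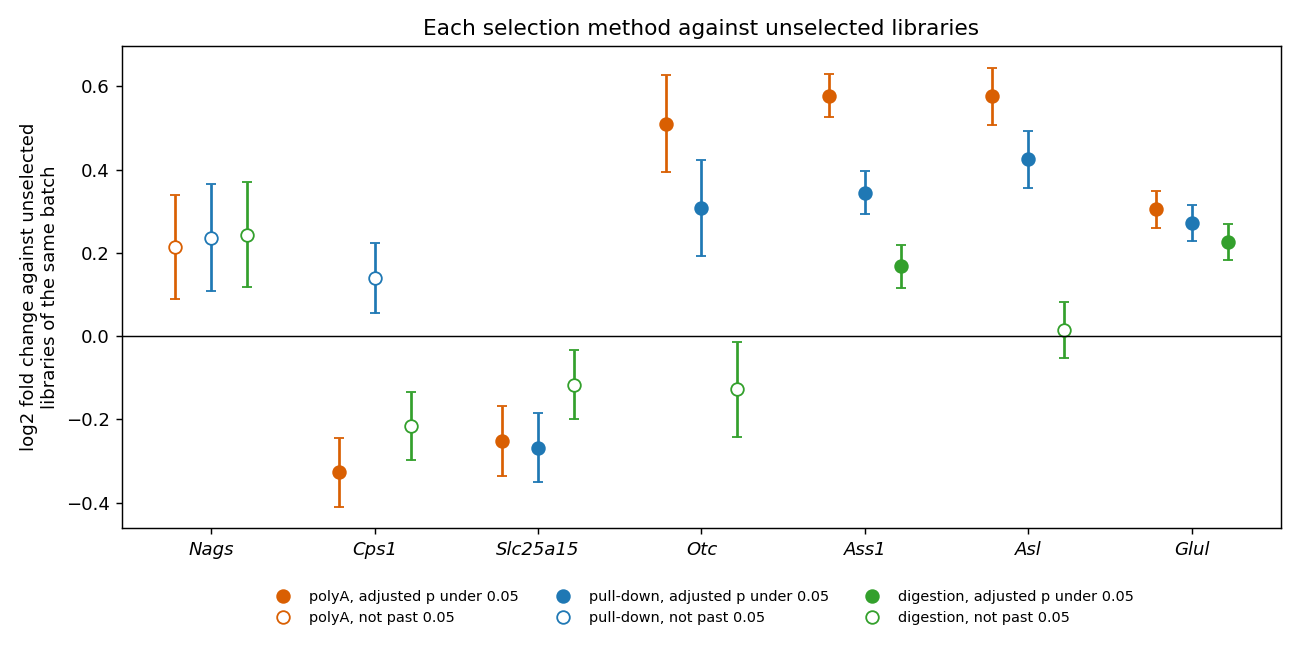
Log2 fold change (y axis) of each gene (x axis) in polyA, pull-down and digestion libraries relative to unselected libraries from its own batch; bars are standard errors and filled points passed an adjusted p of 0.05 in edgeR. Asl was 0.58 higher after polyA selection and 0.43 higher after pull-down, whereas 2 genes, Ass1 and Glul, passed after digestion.

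After pull-down of rRNA, Asl, Ass1, Otc and Glul were higher and Slc25a15 was lower than in unselected libraries, and Cps1 and Nags did not pass. The count that passed was 5 of the 7 genes, where 32.8% of all genes passed. The median log2 difference of the 7 was 0.27, against 0.06 over all genes. Pull-down and digestion share the same 3 unselected libraries of batch 2 as reference. Without the second or the third of these, 3 of the 7 genes passed after pull-down, where 26.2% and 26.4% of all genes did.

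Asl, at 202 to 231 normalised CPM in the unselected libraries, lay at 244 to 314 (median 304) after pull-down, and Ass1, at 2149 to 2276, lay at 2371 to 3156 (median 2792). Neither gene overlapped. Their log2 fold changes were 0.43 ± 0.07 and 0.34 ± 0.05 (edgeR adjusted p = 1.02e-05 and 3.05e-06). Glul rose by 0.27 ± 0.04 (edgeR adjusted p = 1.05e-05), from 309 to 331 up to 365 to 421 normalised CPM.

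Otc rose by 0.31 ± 0.12 (edgeR adjusted p = 0.0404), with 8 of 9 pull-down libraries above the unselected range of 266 to 284. Its call was lost with DESeq2 (adjusted p = 0.0868), with RLE factors in place of TMM (edgeR adjusted p = 0.0991), with coding totals that leave out Lars2 (0.246) and without any 1 of the 3 unselected libraries (0.0701 to 0.124). Without the low-depth library Otc lay at 325 to 377 normalised CPM and rose by 0.40 ± 0.06 (edgeR adjusted p = 1.14e-06). Slc25a15 fell by 0.27 ± 0.08 on the log2 scale (edgeR adjusted p = 0.0132), and all 9 pull-down libraries, at 125 to 204 normalised CPM, lay below the unselected range of 211 to 235. Without the second or the third unselected library, or without the low-count filter, this call was lost (edgeR adjusted p = 0.0574, 0.0734 and 0.0581). Without the low-depth library the pull-down range was 184 to 204 and the fall 0.21 ± 0.05 (edgeR adjusted p = 0.00118). Cps1 had 3124 to 4803 normalised CPM (median 4520) against 3969 to 4026, and its difference of 0.14 ± 0.08 did not pass (edgeR adjusted p = 0.216). Without the low-depth library Cps1 was higher by 0.22 ± 0.03 (edgeR adjusted p = 1.49e-06), and 6 of the 7 genes then passed, where 35% of all genes did. Nags differed by 0.24 ± 0.13 (edgeR adjusted p = 0.171), at 26.1 to 51.5 normalised CPM against 29.1 to 31.1, and at most 38.6 without the low-depth library.

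After digestion the differences of the 7 genes from unselected libraries ran from -0.22 to 0.24 on the log2 scale, in both directions. Ass1 and Glul passed, both higher, where 14.7% of all genes passed in either direction. The median log2 difference of the 7 was 0.01, against 0.04 over all genes.

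Glul rose by 0.23 ± 0.04 (edgeR adjusted p = 0.000423): the 9 digestion libraries had 375 to 394 normalised CPM (median 385), above 309, 313 and 331 in the unselected ones. Ass1 rose by 0.17 ± 0.05 (edgeR adjusted p = 0.0245), from 2149 to 2276 up to 2289 to 2584, without overlap. Its call was lost with RLE factors (edgeR adjusted p = 0.0857) and without the second or the third unselected library (0.123 and 0.0675). Of the 7 genes, Glul and Ass1 passed after all 3 methods, and in the same direction, on the TMM scale. Pull-down and digestion share their unselected libraries, and how many of all genes did the same was not counted.

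Cps1, Otc and Nags did not pass the test, although their groups did not overlap. How often this happens over all genes was not counted. The fit behind these tests holds the low-depth pull-down library. Cps1 lay at 3417 to 3490 normalised CPM in digestion libraries, below all 3 unselected libraries (difference -0.22 ± 0.08, edgeR adjusted p = 0.0789). Otc, at 240 to 257, lay below 266 to 284 (-0.13 ± 0.11, edgeR adjusted p = 0.531). Nags, at 33.1 to 36.3, lay above 29.1 to 31.1 (0.24 ± 0.13, edgeR adjusted p = 0.222). DESeq2, and edgeR with RLE factors, called Cps1 lower. Asl and Slc25a15 differed by 0.01 ± 0.07 and -0.12 ± 0.08 (edgeR adjusted p = 0.931 and 0.410).

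The scaling between libraries sets the zero of these comparisons. In unselected libraries 1 gene, Lars2, took 38.4 to 40.2% of the nuclear protein-coding counts, against at most 0.0404% in polyA and digestion libraries and 0.00139 to 3.25% in pull-down libraries. Scaling by nuclear protein-coding totals moved the median of all genes to 0.49 for polyA, 0.63 for pull-down and 0.80 for digestion, and scaling by library totals moved it to 2.67, 2.31 and 2.85. Under both, the directions flip for Cps1 and Slc25a15 after polyA selection, for Slc25a15 after pull-down and for Cps1, Otc and Slc25a15 after digestion. Of the 7769 genes that passed after polyA selection 3944 were higher, and with coding totals that leave out Lars2 it was 1925 of 7387. For pull-down the same counts were 2692 of 5052 and 1445 of 4848, and for digestion 1089 of 2270, or 703 of 2145 with RLE factors. Relative to the median of all genes, the differences of the 7 genes changed by at most 0.02 over all scalings tried.

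The 2 rRNA methods were both in batch 2 and matched on ramp rate and length. Between them Otc, Asl, Cps1 and Ass1 were lower and Slc25a15 was higher after digestion. These 5 of the 7 genes are a share near that of all genes, of which 70.7% passed, 36.0% lower and 34.7% higher. On the log2 scale Otc differed by -0.44 ± 0.07, Asl by -0.41 ± 0.04, Cps1 by -0.36 ± 0.05 and Ass1 by -0.18 ± 0.03. Slc25a15 was the gene in the other direction, higher by 0.15 ± 0.05 (edgeR adjusted p = 0.00847), with pull-down below digestion in 9 of 9 pairs. Glul and Nags differed by -0.05 ± 0.03 and 0.01 ± 0.06 and did not pass (edgeR adjusted p = 0.123 and 0.921). The 5 calls were also made without the low-depth library. With nuclear protein-coding totals Ass1 differed by 0.0042 and its call was lost (edgeR adjusted p = 0.898), while Glul, at 0.14, and Nags, at 0.20, passed as higher after digestion.

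Marker genes of cell types moved between these methods too, although all libraries came from the liver of 1 mouse. The summed level of the 8 hepatocyte markers was 52234 to 55181 normalised CPM after digestion, 62502 to 82716 after pull-down (71571 to 82716 without the low-depth library) and 80198 to 87970 after polyA selection, with 60182 to 61548 in unselected libraries. The 5 erythroid markers summed to 73.2 to 78.3 after digestion and 401 to 523 after pull-down (401 to 509 without that library). The low sum after digestion lay mainly in globin genes. Relative to unselected libraries, digestion gave log2 differences of -7.42 for Hba-a1, -6.43 for Hba-a2, -5.65 for Hbb-bs and -5.62 for Hbb-bt. Alas2, the remaining erythroid marker, differed by 0.09 and did not pass (edgeR adjusted p = 0.192). In digestion against pull-down Alas2 differed by -0.43. The 6 Kupffer cell markers summed to 91.8 to 97.1 after polyA selection and 186 to 253 after pull-down. Their part in the differences of the 7 genes was not tested.

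PolyA selection against digestion gave the widest gap for Asl. It was 1.55-fold higher (log2 0.63 ± 0.04, edgeR adjusted p = 3.94e-15), and 6 of the 7 genes passed, 4 higher and 2 lower, where 80.6% of all genes passed, 38.4% higher and 42.2% lower. Otc was higher by 0.56 ± 0.07, Ass1 by 0.52 ± 0.03 and Glul by 0.10 ± 0.03. Cps1 was lower by 0.14 ± 0.05 and Slc25a15 by 0.13 ± 0.05. Nags, at 0.12 ± 0.06, did not pass (edgeR adjusted p = 0.0722). With nuclear protein-coding totals Glul and Nags turned to -0.21 and -0.19, and both passed (edgeR adjusted p = 3.30e-09 and 0.0125). These libraries differ in batch. When each method was first set against its own batch's unselected libraries, a fit chosen after seeing the data, Otc (0.64 ± 0.14), Asl (0.56 ± 0.08) and Ass1 (0.41 ± 0.06) passed, where 42.1% of all genes did. Cps1, Slc25a15 and Glul then had edgeR adjusted p = 0.414, 0.321 and 0.258.

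PolyA selection and pull-down separated Cps1 most. It was lower after polyA selection by 0.50 ± 0.05 (edgeR adjusted p = 4.55e-10), and 4 of the 7 genes passed, 3 of them higher, where 72.6% of all genes passed, 36.4% higher and 36.2% lower. Ass1 was higher by 0.34 ± 0.03, Asl by 0.22 ± 0.04 and Glul by 0.06 ± 0.03. Otc, Nags and Slc25a15 differed by 0.13, 0.13 and 0.02 and did not pass (edgeR adjusted p = 0.0943, 0.0704 and 0.681). The Glul call was lost with RLE factors (edgeR adjusted p = 0.120), and with nuclear protein-coding totals Glul turned to -0.07 (0.0107) and the Asl call was lost (0.0515). Slc25a15 also turned negative under those totals, where 4 of the 7 genes passed, as did 70.7% of all genes. Without the low-depth pull-down library Nags passed too, at 0.16 (edgeR adjusted p = 0.00854). Relative to the unselected libraries of each batch, Cps1 (-0.47 ± 0.10) and Ass1 (0.23 ± 0.06) passed (edgeR adjusted p = 0.000596 and 0.00435), where 29.1% of all genes did.

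Long transcripts gave smaller values after polyA selection across the table. Over 13365 coding genes, Pearson's r between the log2 transcript length and the difference from unselected libraries was -0.37 for polyA against unselected, -0.28 for the pull-down and 0.02 for the digestion comparison. Genes are not independent replicates, and these values describe the libraries. Among the 7 genes, the longest transcripts, Cps1 and Slc25a15, were the 2 that fell after polyA selection, and the shortest, Ass1, was among the 4 that rose. Slc25a15, at 3430 bases, lay near the median of 3123 over tested coding genes. Cps1, the longest, did not fall after pull-down (0.14 ± 0.08, not past the threshold). The part of length in the values of these 7 genes was not tested.

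Fragment length moved each of the 7 genes in polyA libraries. All 7 passed between long and short fragments, where 56.3% of 14342 genes passed. The 3 genes with over 54% GC (Nags, Ass1 and Asl) fell, and the 4 with under 50% GC rose. Of all genes 28.7% fell and 27.7% rose. The median difference of the 7 was 0.06 on the log2 scale, against -0.02 over all genes.

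Nags fell furthest. Its 3 short-fragment polyA libraries had 39.04, 44.7 and 45.6 normalised CPM, and the 3 long-fragment libraries had 29.7, 33.4 and 29.0. The long libraries all lay below the short ones, and the log2 fold change was -0.51 ± 0.05 (edgeR adjusted p = 3.91e-06). Against the unselected range of 31.6 to 34.2, the short libraries all lay above, and of the long ones 2 lay below and 1 within.

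Otc rose most, from 321, 322 and 372 normalised CPM with short fragments to 403, 430 and 434 with long ones, a log2 fold change of 0.30 ± 0.03 (edgeR adjusted p = 1.52e-05). Slc25a15 rose by 0.21 ± 0.03, from 172 to 182 up to 206 to 215 (edgeR adjusted p = 6.41e-05). Ass1 fell by 0.15 ± 0.02 on the log2 scale, from 3613 to 3679 down to 3245 to 3430 (edgeR adjusted p = 1.60e-05). Neither of the last 2 genes had overlapping groups.

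The other 3 genes moved less. Asl fell by 0.11 ± 0.03 on the log2 scale, and Glul and Cps1 rose by 0.09 ± 0.02 and 0.06 ± 0.02. Their edgeR adjusted p were 0.00317, 0.00579 and 0.0312. Long and short libraries of Cps1 overlapped, at 3101 to 3348 and 2938 to 3175 normalised CPM, although the long library was higher at each of the 3 ramp rates. The Cps1 call was lost without the fast long, medium short or fast short library (edgeR adjusted p = 0.0651 to 0.0825). In a fit over all 27 selected libraries, Nags, Otc, Slc25a15 and Ass1 passed, where 49.7% of all genes did.

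**Figure D3:**
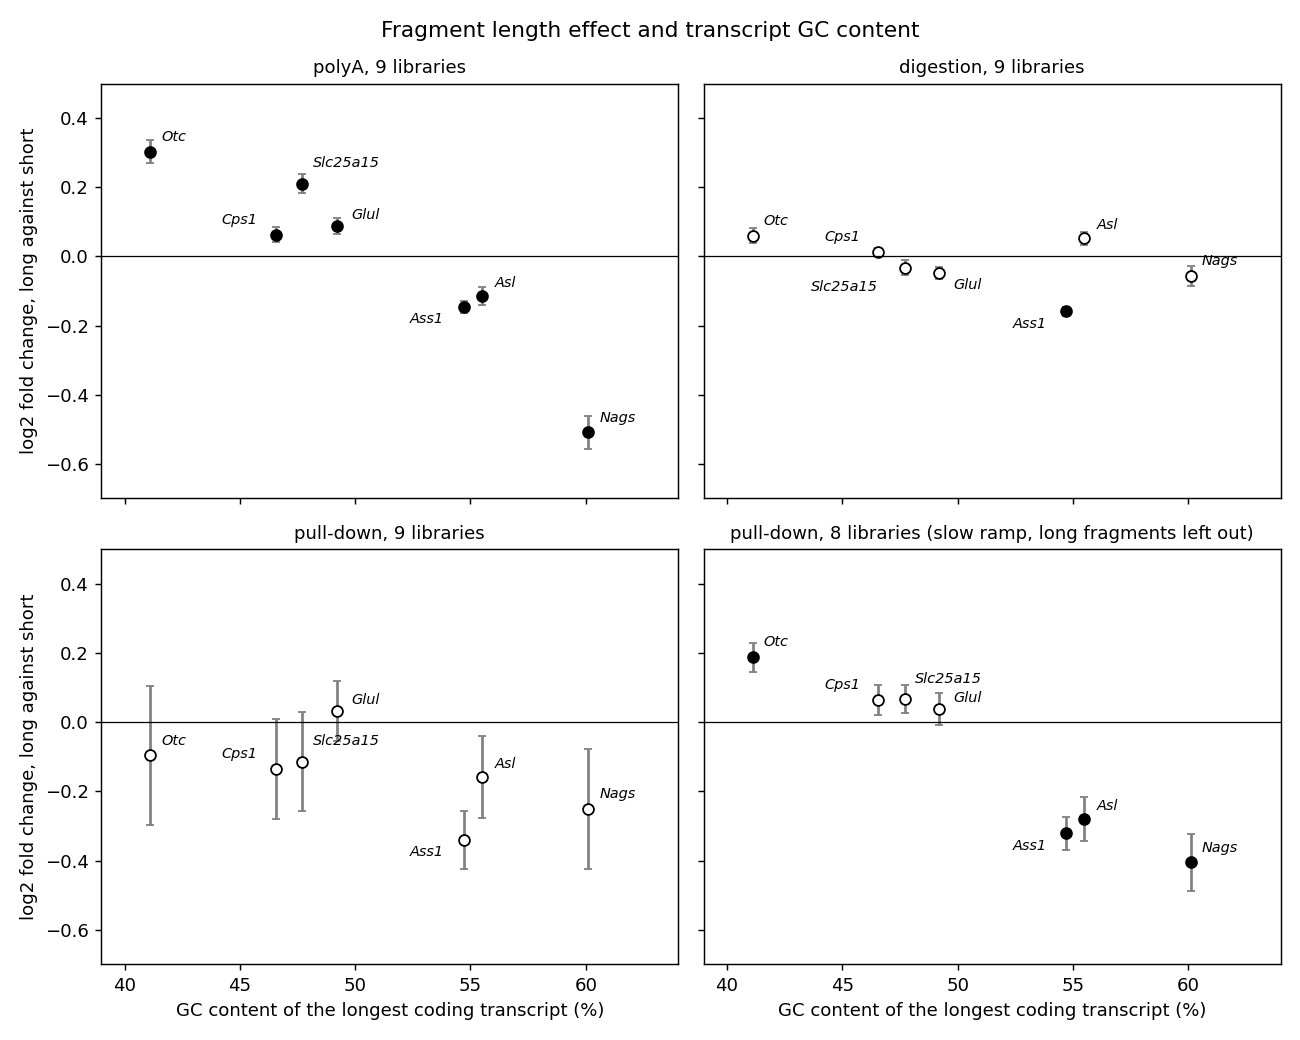
Log2 fold change of long against short fragments (y axis) by the GC content of each gene's longest coding transcript (x axis, %); bars are standard errors and filled points passed an adjusted p of 0.05 in edgeR. In polyA libraries the highest value was 0.30, for Otc at 41.1% GC, and the lowest -0.51, for Nags at 60.1%, and in digestion libraries all 7 lay between -0.16 and 0.06.

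Across the table, length effects in polyA libraries were lower for genes of higher GC content. Pearson's r between GC content and the length effect was -0.64 over 12926 coding genes, with a median effect of -0.33 for genes above 54% GC and 0.24 for those below 50%. In pull-down libraries r was -0.44 and in digestion libraries -0.08. These are descriptions across genes of the same libraries, and the part of GC content in the values of the 7 genes was not tested.

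In pull-down libraries none of the 7 genes passed for fragment length with all 9 libraries, where 6.23% of 14128 genes passed. The low-depth library is among the 3 with long fragments. DESeq2 called 1 of the 7, where it called 9.22% of all genes, and Ass1 alone had an unadjusted edgeR p below 0.05 (0.00349). Ass1 came nearest, with 3025 to 3156 normalised CPM for short and 2371 to 2515 for long fragments (-0.34 ± 0.08, edgeR adjusted p = 0.0529). Without any 1 of the other 5 short or long libraries none of the 7 passed either, where 0.534 to 1.29% of all genes did. Leaving out the low-depth library, 37.4% of all genes passed, and 4 of the 7 were among them: Nags (-0.41 ± 0.08), Ass1 (-0.32 ± 0.05), Asl (-0.28 ± 0.06) and Otc (0.19 ± 0.04). Otc had the other sign, -0.10 ± 0.20, with all 9 libraries.

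In digestion libraries the length differences of the 7 genes lay between -0.16 and 0.06 on the log2 scale. Of the 7 genes 1, Ass1, passed, where 18.3% of all genes passed. It fell by 0.16 ± 0.01 on the log2 scale (edgeR adjusted p = 1.64e-07), from 2521, 2580 and 2584 to 2292, 2309 and 2289 normalised CPM. Nags had 34.8, 35.7 and 36.3 with short and 33.1, 34.6 and 35.04 with long fragments, a difference of -0.06 ± 0.03 (edgeR adjusted p = 0.222). Asl was higher with long fragments at each of the 3 ramp rates, by 0.05 ± 0.02 (edgeR adjusted p = 0.0717), the sign opposite to polyA libraries. Glul also had the opposite sign, lower with long fragments at each ramp rate and without overlap, by -0.05 ± 0.02 (edgeR adjusted p = 0.0691). In the fit over all 27 libraries the Ass1 call was lost (edgeR adjusted p = 0.0696).

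The difference of the length effect between methods was tested directly. Between polyA and digestion libraries, where 32.6% of all genes differed, 1 of the 7 did. The length effect of Nags was lower in polyA than in digestion libraries by 0.47 ± 0.11 on the log2 scale (edgeR adjusted p = 0.00300). Between polyA and pull-down none of the 7 differed, where 3.00% of all genes did, nor between pull-down and digestion, where 14.4% did. Without the low-depth library, again a fit chosen after seeing the data, Ass1, Asl and Nags differed between pull-down and digestion (-0.20, -0.35 and -0.36), where 25.9% of all genes did, and Ass1 and Slc25a15 between polyA and pull-down (0.19 and 0.15), where 8.45% did.

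Ramp rate and batch left no call among the 7 genes. Fast against slow ramp passed for 0.0712% of 15442 genes (0.445%, and again none of the 7, without the low-depth library), and the differences of the 7 lay between -0.02 and 0.05 on the log2 scale, Glul (0.05 ± 0.02) having an unadjusted p of 0.0231. DESeq2 called none of the 7 either. Between the unselected libraries of the batches 0.366% of 10642 genes passed. The 7 genes differed by -0.14 (Nags) to 0.09 (Otc), with Ass1 (-0.09 ± 0.03) the one with an unadjusted edgeR p below the threshold, 0.00938, and an adjusted p of 0.338. DESeq2 called none of them.

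Heart and liver separated glutamine synthetase from the urea cycle. The heart library cannot be tested, since there is 1, and values are given on a scale fitted to it and the 3 unselected liver libraries of its batch. At least 2-fold lower in heart were 6 of the 7 genes, where 23.3% of 12828 genes were. Counting Nags at its upper limit for a floor of 3 counts, the median heart level of the 7 was that limit itself, 1.25% of the liver level, against 101% over all genes. With the exact Poisson limit of 1.54% for Nags, the median is the Asl level, 1.35%. In bulk tissue, fewer cells of a type and less RNA per cell cannot be told apart.

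Glul had 1428 counts in heart and 1501 to 1550 in each liver library. Its normalised level was 48.8 in heart and 78.8, 83.1 and 77.4 in liver. The heart level was 61.2% of the mean of liver (95% exact Poisson interval of the heart count 58.1 to 64.5%). Intervals in this comparison cover counting error only. The scale matters for every heart value: with nuclear protein-coding totals Glul stood at 92.4%, and with library totals at 88.0%.

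Cps1 had 97 counts in heart against 17556 to 18854 in liver, which is 0.344% of the liver level (0.279 to 0.419%). Otc had 7 counts (0.371%, 0.149 to 0.764%) and Ass1 84 counts (0.488%, 0.389 to 0.604%). These 3 genes lay within the range of the 8 hepatocyte markers, which were at 0.299 to 0.608% of their liver level in the heart library (median 0.351%). The upper end is Trf alone, and the other 7 markers lay at 0.299 to 0.419%, below Ass1. Alb, for example, had 950 counts in heart, 0.346% of its liver level. The part of hepatocyte RNA in these heart values was not tested.

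Asl and Slc25a15 lay above that range with their whole intervals. Asl had 22 counts and 1.35% of its liver level (0.847 to 2.05%). Slc25a15 had 72 counts and 4.402% (3.44 to 5.54%). Nags had 0 counts in heart against 142 to 166 in liver, which at a floor of 3 counts allows up to 1.25%, or at least 79.9-fold lower. The exact interval of 0 counts, used for the other genes, reaches 1.54%, or at least 65.0-fold lower. With nuclear protein-coding totals the floor gives at least 53.0-fold, Cps1 stood at 0.519%, Ass1 at 0.737%, Asl at 2.04% and Slc25a15 at 6.64%, and the markers at 0.450 to 0.917%. The 8 cardiomyocyte markers, Myh6 among them, summed to 7802 normalised CPM in the heart library and to at most 0.152 in the 3 liver libraries.

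**Figure D4:**
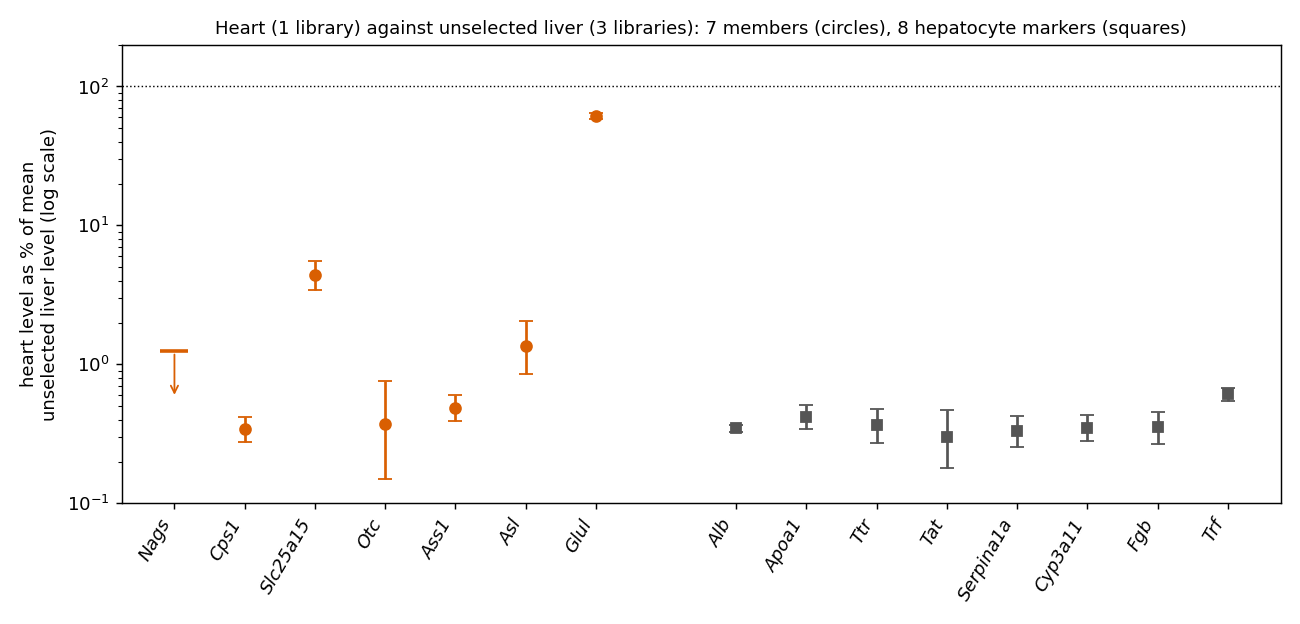
Level in the 1 heart library as a percent of the mean of 3 unselected liver libraries (y axis, log scale) for the 7 genes (circles) and 8 hepatocyte markers (squares); bars are 95% exact Poisson intervals of the heart count, and the arrow marks the upper limit for Nags at 0 counts. Glul lay at 61.2%, and Cps1, Otc and Ass1 lay at 0.344 to 0.488%, within the range of the markers.

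Genes around the cycle moved with selection as well. Of 25 genes for nitrogen entry, carriers and paralogs, 23 could be tested. After polyA selection 11 were higher and 5 lower, where 25.6% and 24.8% of all genes were, with a median of 0.36. Slc25a2, a second ornithine carrier, was among those lower (edgeR adjusted p = 0.0275), but with 1 or 2 counts in each unselected library of batch 1. Car5a, the mitochondrial carbonic anhydrase that supplies bicarbonate, rose by 0.90 ± 0.13 (edgeR adjusted p = 5.44e-07), and Oat, ornithine aminotransferase, by 0.68 ± 0.06 (edgeR adjusted p = 5.78e-11). After pull-down 7 were higher and 4 lower (17.5% and 15.3% of all genes). Oat rose by 0.57 ± 0.06, and Slc38a2, an amino acid transporter, fell by 0.63 ± 0.06. After digestion 2 were higher and 2 lower (7.06% and 7.66% of all genes), among them Oat at -0.23 ± 0.06 and Gls2, the liver glutaminase, at 0.17 ± 0.06.

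Genes of the periportal zone, where urea is made, rose with polyA selection in 8 of 10 cases and fell in none, where 25.6% of all genes rose and 24.8% fell, with a median of 0.44. All 8 hepatocyte markers rose as well. Hsd17b13 rose by 0.77 ± 0.07 and Gls2 by 0.56 ± 0.06. After pull-down, where 17.5% of all genes were higher and 15.3% lower, 7 were higher and 2 lower, with Aldh1b1 at 0.68 ± 0.07 and Cyp2f2 at -0.40 ± 0.07. Digestion gave 1 call, Gls2, where 14.7% of all genes passed. Of 10 pericentral genes, the zone of Glul, 5 rose and 3 fell after polyA selection (25.6% and 24.8% of all genes), with a median of 0.39, and with Oat at 0.68 ± 0.06 and Lgr5 at -0.88 ± 0.15. After pull-down 2 were higher and 3 lower (17.5% and 15.3% of all genes), and Tbx3 had the largest difference, -1.44 ± 0.09. After digestion Tbx3 was higher by 0.36 ± 0.08 and Oat lower. All these libraries hold RNA of the same liver.

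Messages for regulators of hepatocyte genes were often higher after digestion. Of 12 such genes, 8 were higher and none lower, where 7.06% of all genes were higher, with a median of 0.43. Cebpb rose by 1.63 ± 0.25 and Cebpa by 1.17 ± 0.15 (edgeR adjusted p = 2.27e-05 and 5.48e-07). Foxa2 rose by 0.94 ± 0.12 and Foxa1 by 0.60 ± 0.13. After polyA selection 1 was higher and 5 lower (25.6% and 24.8% of all genes), with Tcf7l2 at -1.41 ± 0.11. After pull-down 2 were higher and 3 lower (17.5% and 15.3% of all genes), with Tcf7l2 at -2.04 ± 0.12. Foxa1 fell after both, by 0.74 ± 0.13 and 1.63 ± 0.15 on the log2 scale, the sign opposite to digestion. Without the low-depth library the counts after pull-down, where 19% of all genes were then higher and 16% lower, were 8 higher and 5 lower for the genes around the cycle, 8 and 2 for periportal, 4 and 3 for pericentral and 2 and 3 for regulator genes. The genes named after pull-down from these lists passed in the same direction.

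In heart, the genes around the cycle lay on both sides of their liver level, and those named here were chosen after their values were seen. Slc25a12, the aspartate and glutamate carrier of heart and muscle, stood at 1068% of its liver level, with 721 counts against 38 to 49. Its liver counterpart Slc25a13 stood at 49.5%. Gls2 had 6 heart counts, 0.271% of its liver level (0.0996 to 0.590%). Glud1, glutamate dehydrogenase, stood at 14.5%.

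Genes whose levels followed each member most closely over the 33 liver libraries were sought among protein-coding genes by Pearson's r of log2 normalised CPM. The libraries fall into groups by method, so r here mainly describes a shared pattern across methods and lengths. Otc was closest to Cpb2 (r = 0.99), Ugt2b36 and Kmo (0.98 each). The low-depth library is among the 33. Asl was closest to Ahcy, Hagh and Il11ra1 (0.98 each). Ass1 was closest to Asgr2 (0.98), Serpina3n and Ndrg2 (0.97 each). Cps1 had Faf1 (0.96), Vsig4, a Kupffer cell marker (0.95), and Sf3b1 (0.93) nearest, and Slc25a15 had Ccar1 (0.95), Cdc14b (0.94) and Naa16 (0.92). Glul had U2af1l4 (0.95), AL731706.1 and Gm49342 (0.94 each), and Nags had Slc27a4, Pgls and Unc93b1 (0.93 each). No member was among the 3 nearest genes of another.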

How the data were processed

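The data are gene-level values for 34 RNA-seq libraries from 1 mouse, 33 of liver and 1 of heart. The deposited table holds estimated counts per gene, which need not be whole (10.5% of values were not), and the submitters' processing notes name UMI-tools 1.1.1, Salmon 1.9.0, R 4.4.0 and GRCm38 without their roles. Counter settings, the transcript set and the use of strand are not given in the sources used here. Gene names and coordinates came from GENCODE M21, which matched 50896 of 51368 identifiers.

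Estimated counts were rounded. edgeR 4.0.16 in R 4.3.3 was run with its low-count filter, TMM scaling, the quasi-likelihood test and Benjamini-Hochberg adjustment over all tested genes at 0.05. Normalised CPM are CPM on the TMM-scaled library size. The standard error is the absolute log2 fold change divided by the square root of F. Methods and unselected libraries entered 1 fit, long and short fragments 1 fit per method, and the length difference between methods and ramp rate 1 fit of 27 libraries. Depth per library is in the opening; a gene with 7 counts, as Otc in heart, has a wide interval.

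The members, lists and named genes were chosen with earlier results of these data known. All 7 members were named in every comparison (1 further gene of the member list and 1 of the partner list are not reported here), of each list up to 4 genes with the largest difference among those that passed, and the 3 protein-coding genes nearest to each member. No value column was left unused (0). Alternatives were DESeq2 1.42.0, RLE factors, 3 other scalings, no filter, a required 1.5-fold change, left-out libraries and a replicate block. No 2 libraries held identical values. On simulated data for polyA against unselected libraries (15422 genes), 59% of genes changed by 1 on the log2 scale and 41% of those changed by 0.5 were recovered. For length in polyA libraries (14342 genes) it was 84% and 67%, and in pull-down libraries (14128 genes) 74% and 19%. Of the genes called in these 3 simulations 6.54%, 8.48% and 5.10% were unchanged ones. Each simulation changed 100 genes by 1 and 100 by 0.5, fewer than passed in the data, so these shares may not carry over.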

Additional observations from a re-analysis of the deposited data

Results flagged for a closer look

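The slow-ramp, long-fragment pull-down library lay far from the other 8 pull-down libraries for 4 genes. It was the lowest for Cps1 (3124 normalised CPM), Otc (203) and Slc25a15 (125), and the highest for Nags (51.5). Each gap to the nearest library exceeded Dixon's critical value for 9 samples, and 21 groups were tested, and chance flags about 1 in 20 groups. This library had 1126383 counts, and its Nags value rests on 63 counts. The part of depth in these values was not tested.

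The length effect of Nags differed between polyA and digestion libraries by -0.47 on the log2 scale (edgeR interaction test, adjusted p = 0.00300). The long library was below the short one at 3 of 3 ramp rates in polyA and also in digestion libraries.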

How the results depend on the processing

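Of the alternative values for single members, 476 kept both direction and side of the threshold, 60 lost the call, 33 gained one and 38 reversed. The cause of each change was not tested.

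Counts of the 7 genes that passed moved as follows. A required 1.5-fold change left 0 in each of the 6 comparisons of methods, where 1.32 to 34.3% of all genes passed. Relative to the unselected libraries of each batch, polyA against pull-down gave 2 (29.1% of all genes) and polyA against digestion 3 (42.1%). Digestion against unselected gave 3 with DESeq2 (15.6% of all genes), 7 with library totals (98.2%) and 7 with coding totals (74%), where the median of all genes was 2.85 and 0.80. Length in the 27-library fit gave 4 for polyA (49.7% of all genes), 2 for pull-down (33.3%) and 0 for digestion (6.05%). Length in pull-down gave 1 with DESeq2 (9.22%) and 1 without the filter (4.14%), and length in digestion 3 without the filter (11.9%) and 3 with coding totals (17.8%).

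Leaving out 1 library gave 5 to 6 genes for polyA (43.1 to 43.5% of all genes), 3 to 6 for pull-down (26.2 to 35%) and 1 to 2 for digestion against unselected (8.29 to 10.4%, below the 14.7% with all libraries), the low ends of the last pair without the second or the third unselected library. Length gave 6 to 7 in polyA (48.2 to 53.5% of all genes) and 0 to 4 in pull-down, with 4 without the low-depth library (37.4%) and 0 without any other (0.534 to 1.29%). It gave 1 to 2 in digestion (12.6 to 15.1%), where Otc also passed without the slow short library. Without the low-depth library the length difference gave 2 between polyA and pull-down (8.45% of all genes) and 3 between pull-down and digestion (25.9%), and batch gave 0 to 0 (0.11 to 0.589%). The summed level of the 7 genes in the unselected libraries of batch 1 was 8049 normalised CPM with coding totals and 7359 with TMM.

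With library totals, polyA against unselected was 2.32 for Cps1 and 2.40 for Slc25a15, pull-down 1.99 for Slc25a15, and digestion 2.60 for Cps1, 2.69 for Otc and 2.70 for Slc25a15. With coding totals these were 0.12 and 0.20, 0.31, and 0.55, 0.64 and 0.65. Coding totals also gave 0.0042 for Ass1 and 0.14 for Glul in digestion against pull-down, -0.10 for Slc25a15 and -0.070 for Glul in polyA against pull-down, and -0.19 for Nags and -0.21 for Glul in polyA against digestion. Without Lars2 in those totals the values were -0.041 for Nags in polyA and -0.0031 for Cps1 in pull-down against unselected. They were 0.13 for Glul in digestion against pull-down, -0.0017 for Otc, -0.11 for Slc25a15 and -0.074 for Glul in polyA against pull-down, and -0.19 for Nags and -0.21 for Glul in polyA against digestion. Nags relative to each batch was -0.022 against pull-down and -0.030 against digestion. Asl in digestion against unselected was -0.031 with DESeq2, -0.029 with RLE factors and -0.025 to 0.073 with 1 unselected library left out. Slc25a15 in polyA against pull-down was -0.021 without the low-depth library. Length in pull-down for Otc was 0.0020 in the 27-library fit and 0.03 without the slow short library. With 1 library left out it ranged from -0.28 to 0.19 for Otc, -0.28 to 0.065 for Cps1, -0.22 to 0.067 for Slc25a15 and -0.41 to 4.1e-05 for Nags. The upper ends of the first 3 came without the low-depth library, and that of Nags without the fast long one.

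With the replicate number as a replicate block, 0 of the 7 genes passed between batches, and same-numbered libraries had deviations correlated at 0.0142, -0.0036 and -0.0460, so the numbers pair nothing. Depth limits Nags most, with 139 to 166 counts per unselected library, and of the 7 genes all but Glul had under 100 counts in heart.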
